A study of Mus musculus with 6 samples.

Results

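Positions annotated to gene bodies are single cytosines that the deposited tables place in an exon or an intron and in no promoter. They were taken from all 10 tables as every position whose annotation was neither empty nor contained a promoter. This gave 98704 distinct positions of the 448072 listed in any table. The lines are cultured cells of OG2 mice, a strain with a green fluorescent reporter under the regulatory sequence of Pou5f1. There was 1 line of germline stem cells (GSC, the self-renewing cells that found spermatogenesis). There were 2 independent lines of induced pluripotent stem cells made from GSC (iPSC) and 2 of germline-derived pluripotent stem cells (gPSC). The last line was of embryonic stem cells (ESC), so the series holds 6 samples. Neither age nor sex, passage nor culture medium of the lines is given in the sources used here. Each of the 5 libraries other than ESC had 1 table of higher and 1 of lower methylation.

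Methylation was read by reduced representation bisulfite sequencing, which covers the CG-rich fragments of a digested genome. Each listed position has a methylation difference in percentage points between its library and a reference. No table says what its reference was. Since ESC alone has no tables of its own, ESC is assumed to be the reference. A positive difference is called hyper below and a negative one hypo. The tables hold called positions only, with a q-value of at most 0.01 and a difference of at least 25 points in size. Read depth and absolute methylation are absent from them, so the precision of a value is unknown and a missing position may be unchanged or unmeasured. All libraries share 1 reference, so their differences are not independent of each other. GSC has 1 library and no replicate check.

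As background, cytosines of CG pairs are methylated through most of the mammalian genome, including the bodies of transcribed genes. CG-rich gene starts are mostly kept free of it. DNMT3A and DNMT3B set new methylation, DNMT1 with UHRF1 copies it at replication, and TET enzymes oxidise it. Male germ cells carry densely methylated genomes, whereas cultured embryonic stem cells range from sparse to dense methylation with the culture medium.

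Where a gene-body position lay in the start window of a RefSeq gene, 250 bases before to 50 after the start, its base could be read. Of 1922 such positions, 947 were the C and 972 the G of a CG pair. The tables therefore list cytosines of both strands as separate positions. Gene-body positions of opposite direction often met in such windows, and 4 windows are printed. Those of Usp7, Maco1 and Nsmce3 show both directions in GSC, and that of E2f1 shows 1 direction only. In each line below, from the GRCm38.p6 RefSeq table and on the strand of the gene, capitals mark the listed gene-body positions of any library. A capital C is a cytosine of the strand printed, and a capital G is the partner of a listed cytosine on the other strand.

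Usp7: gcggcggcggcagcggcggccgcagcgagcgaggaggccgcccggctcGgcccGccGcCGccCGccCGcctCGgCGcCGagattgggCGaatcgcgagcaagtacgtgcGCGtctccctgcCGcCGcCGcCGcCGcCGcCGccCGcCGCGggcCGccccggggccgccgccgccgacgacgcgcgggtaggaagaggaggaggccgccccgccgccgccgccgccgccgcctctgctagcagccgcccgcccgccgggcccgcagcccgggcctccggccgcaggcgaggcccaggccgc
Maco1: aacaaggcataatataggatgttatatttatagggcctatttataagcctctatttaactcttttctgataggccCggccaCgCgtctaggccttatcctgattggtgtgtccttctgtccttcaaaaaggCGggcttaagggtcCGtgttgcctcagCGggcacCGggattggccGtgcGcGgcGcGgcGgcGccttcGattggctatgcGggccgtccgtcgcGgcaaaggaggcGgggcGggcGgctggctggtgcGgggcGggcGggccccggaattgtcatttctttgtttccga
E2f1: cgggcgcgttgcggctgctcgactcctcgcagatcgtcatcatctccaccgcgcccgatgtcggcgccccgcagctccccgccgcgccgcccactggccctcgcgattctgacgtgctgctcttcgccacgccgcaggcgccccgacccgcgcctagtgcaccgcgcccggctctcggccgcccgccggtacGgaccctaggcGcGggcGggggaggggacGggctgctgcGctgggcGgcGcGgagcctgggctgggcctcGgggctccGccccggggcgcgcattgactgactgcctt
Nsmce3: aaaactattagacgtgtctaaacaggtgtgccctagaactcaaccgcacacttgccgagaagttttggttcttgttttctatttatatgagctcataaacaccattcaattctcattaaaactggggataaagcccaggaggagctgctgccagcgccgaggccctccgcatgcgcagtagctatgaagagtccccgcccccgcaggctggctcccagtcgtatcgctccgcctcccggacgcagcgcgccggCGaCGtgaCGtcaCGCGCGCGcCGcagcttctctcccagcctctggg

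Usp7 encodes a deubiquitinase that acts on p53 and its ligase MDM2, and the start window printed, of 1 of its RefSeq starts, is chr16:8738293-8738592 on the minus strand. It held 63 CG pairs and 42 listed gene-body positions. In iPSC 1 and iPSC 2 the window had 21 and 23 positions, every one hypo and every one a capital G. GSC had 21 hypo positions, all capital G, beside 19 hyper positions, all capital C. gPSC 1 had 1 position there and gPSC 2 had none.

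The window of Maco1, which encodes the endoplasmic reticulum protein macoilin, is chr4:134853296-134853595 on the minus strand and held 28 CG pairs. Its 17 positions of iPSC 1 and 16 of gPSC 2 were hypo at capital G, while the 6 positions of iPSC 2 were hypo at capital C. GSC listed 3 hyper positions at capital G and 4 hypo ones at capital C there, and gPSC 1 listed none. E2f1 encodes a transcription factor of the cell cycle, and its window, chr2:154569377-154569676 on the minus strand, held 48 CG pairs and 11 positions. They were hypo in GSC, all at capital G, and no other library listed one there.

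Nsmce3 encodes a subunit of the SMC5/6 complex of DNA repair, and its window is chr7:64872991-64873290 on the minus strand. GSC and iPSC 2 each listed 8 hyper positions at capital C and 8 hypo positions at capital G of the same CG pairs. Over all start windows the median was 7 CG pairs, so these 4 windows are CG-rich. Across the 5 libraries, 115 to 245 CG pairs had both cytosines listed as gene-body positions in a start window. In 90.6% to 100% of them, the C and the G differed from the reference in opposite directions. Among these opposite pairs, 85.5% to 94.6% had differences that summed to within 5 points of 0. A mean over such a pair is therefore near 0, and the source of the opposite signs was not tested. Neither strand was always the hypo one: over the libraries the C of the plus strand was hyper and the G hypo in 40 to 90 of these opposite pairs, and the reverse held in 55 to 132. Whether the sign of the values of 1 strand is turned in some places was not tested. The direction of positions listed on 1 strand only, as in Usp7, Maco1 and E2f1, depends on it, and so do the hypo calls of genes and the shares near starts given below.

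Over all gene-body positions, whatever their distance to a start, 8.55% to 15.9% of a library's positions had a neighbour 1 base away. Of these neighbouring pairs 32.1% were opposite in GSC and 57.9% to 73.5% in the other 4 libraries. In GSC 3286 pairs were hyper at both bases and 7 were hypo at both. Outside such pairs, 93.7% of gene-body positions were hyper in GSC, 92.3% and 86.1% in iPSC 1 and 2, and 92.9% and 95.3% in gPSC 1 and 2.

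By annotation, 80248 of the distinct gene-body positions (81.3%) were in introns. Another 13228 (13.4%) were in exons, and 5228 (5.30%) carried both terms. A single library listed 50171 of them (50.8%), and all 5 libraries listed 7892. The annotation has gaps that bear on every count. None of the rows on chromosomes X, Y and MT has a feature, so gene bodies are autosomal here. Of listed positions inside protein-coding genes, 94.7% had a feature where the gene lies on the plus strand and 26.2% where it lies on the minus strand. Gene bodies in these tables are therefore mainly those of plus-strand transcripts.

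Gene-body positions were mostly hyper in every library. GSC listed 53814 hyper and 4489 hypo positions, so 92.3% were hyper. iPSC 1 listed 29284 and 3495 (89.3% hyper), and iPSC 2 listed 32294 and 6057 (84.2% hyper). gPSC 1 listed 31942 and 3652 (89.7% hyper), and gPSC 2 listed 35009 and 2541 (93.2% hyper). GSC thus had the most hyper positions and iPSC 2 the most hypo ones. Across the 19 autosomes the share hyper ran from 90.3% to 94.4% in GSC and from 82.2% to 86.5% in iPSC 2. It ran from 85.3% to 94.4% in iPSC 1, from 86.1% to 92.4% in gPSC 1 and from 91.6% to 95.5% in gPSC 2.

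**Figure D1:**
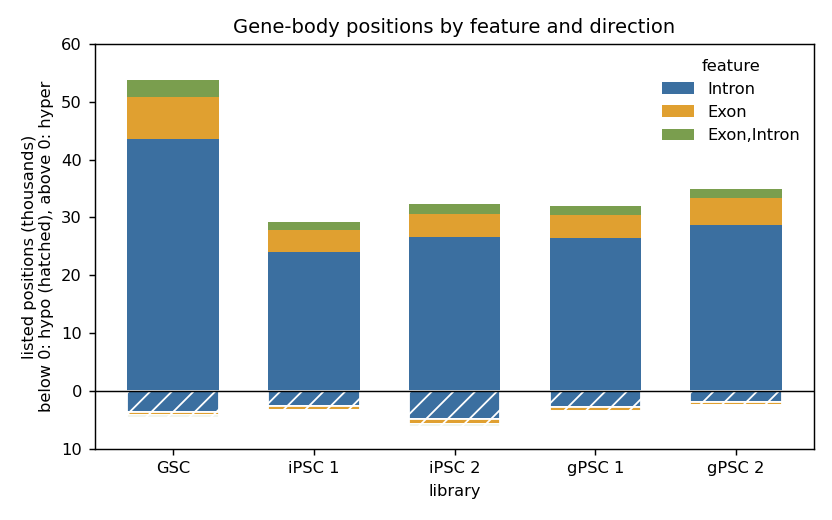
Number of listed gene-body positions (axis in units of 1000, y axis) per library (x axis), with hyper positions above 0 and hypo positions hatched below 0, coloured by the deposited feature. GSC stands highest with 53814 hyper positions, and introns make up most of every bar.

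Introns, exons and positions with both terms were each mostly hyper. In introns 92.4% of GSC positions were hyper, 90.1% and 84.7% of those of iPSC 1 and 2, and 90.3% and 93.6% of those of gPSC 1 and 2. In exons the shares were 92.2%, 86.4%, 83.0%, 87.1% and 91.6% in the same order. Positions with both terms were hyper at 91.5%, 84.4%, 80.3%, 87.9% and 92.3%. The exon share was below the intron share in 5 of 5 libraries, with a difference, exon minus intron, of -2.12 ± 1.35 points (SD, n = 5) and of -0.211 points in GSC. An exact two-sided sign-flip permutation test over the libraries gave p = 0.0625, the smallest that 5 libraries allow, and the same after adjustment over 4 such tests. This test treats the libraries as independent, which they are not, since they share 1 reference. Leaving out positions within 50 bases of an opposite one brought the mean to -0.158 points (exact p = 0.6875). The median hyper difference was smaller in exons than in introns in each library, at 61.1 against 70.4 points in GSC. It was 47.9 against 51.2 points in iPSC 1 and 53.8 against 60.0 points in iPSC 2. In gPSC 1 it was 54.3 against 59.6 points, and in gPSC 2 it was 48.0 against 51.8 points.

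Set against promoter positions of the same tables, gene-body positions were more often hyper. Promoters were hyper at 56.4% to 65.1% of positions, and positions with no feature at 82.7% to 91.0%. The excess of gene bodies over promoters was 30.5 ± 2.48 points (SD, n = 5), seen in 5 of 5 libraries (exact sign-flip permutation p = 0.0625). Since the 5 libraries share 1 reference, their common direction is not 5 independent observations. Hyper positions also differed more from the reference in gene bodies, by 12.8 ± 4.31 points of their median (SD, n = 5, exact sign-flip permutation p = 0.0625). This gap was 6.53 points without positions 1 base from an opposite one, and such pairs took up 29.2% to 37.7% of hyper promoter positions and 2.63% to 4.35% of hyper gene-body ones. Against positions with no feature, the excess in share hyper was 2.62 points (exact sign-flip permutation p = 0.0625). The median hyper difference then lay 0.238 points higher (exact sign-flip permutation p = 0.5625). Gene bodies were thus closer to positions with no feature than to promoters in both measures. That class is not sequence outside genes, since only 26.2% of listed positions inside minus-strand protein-coding genes had a feature.

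**Figure D2:**
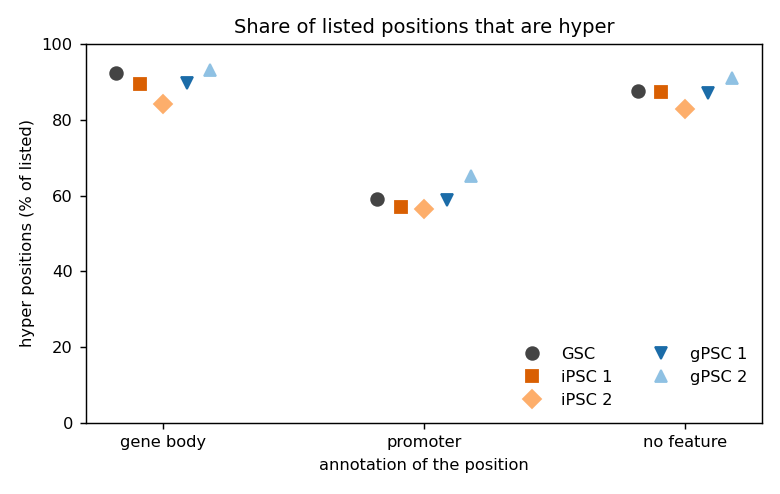
Share of listed positions that are hyper (percent, y axis) in gene bodies, promoters and positions with no feature (x axis), 1 point per library. Gene bodies lie between 84.2% and 93.2%, promoters between 56.4% and 65.1%, and positions with no feature between 82.7% and 91.0%.

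GSC had the highest hyper median and iPSC 2 the lowest hypo median. Hyper gene-body positions had a median difference of 69.0 points in GSC, 50.6 and 59.0 in iPSC 1 and 2, and 58.9 and 51.2 in gPSC 1 and 2. A difference of 100 points, no methylation in one library and full methylation in the other, was reached by 15.7% of hyper positions in GSC and 16.3% in iPSC 2. In iPSC 1, gPSC 1 and gPSC 2 the shares were 3.32%, 7.92% and 4.40%. The hypo medians were -53.0 points in GSC, -42.9 and -69.2 in iPSC 1 and 2, and -47.8 and -48.1 in gPSC 1 and 2. In iPSC 2 31.2% of hypo positions stood at -100 points, against 7.64% to 12.0% elsewhere. The share was higher in introns: 33.8% of its intron hypo positions and 18.2% of its exon ones were at -100. Positions of full difference can come from few reads, and whether coverage differs between libraries was not tested, since the tables give none.

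**Figure D3:**
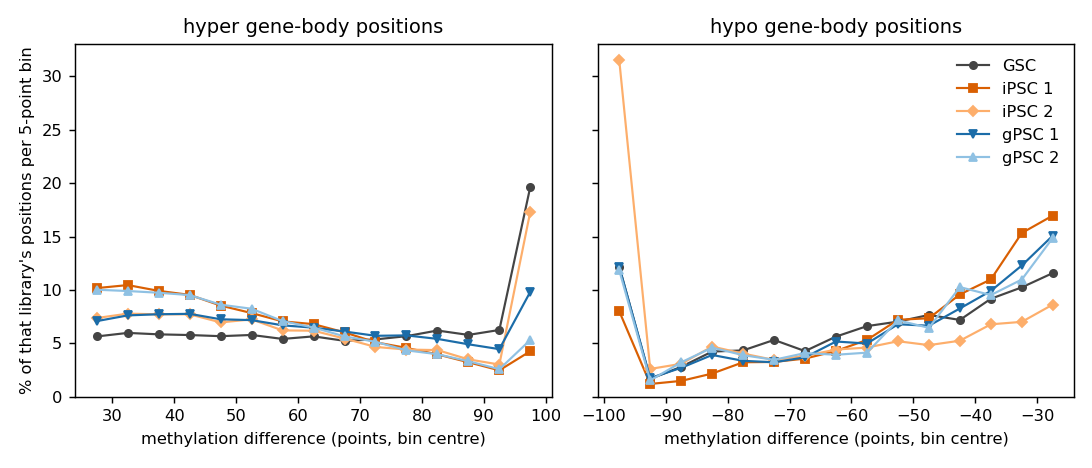
Distribution of the methylation difference over hyper (left) and hypo (right) gene-body positions, as the percent of a library's positions of that direction (y axis) in bins of 5 points (x axis). iPSC 2 has a peak of hypo positions at -100, where it holds 31.2% of them, and GSC and iPSC 2 have the highest hyper peaks at 100.

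The iPSC and gPSC lines could be compared over 2 lines each, a design whose exact permutation test cannot give a p below 0.333. Hyper gene-body positions numbered 30789 ± 2128 (SD, n = 2) in iPSC and 33476 ± 2169 (SD, n = 2) in gPSC. The lines of both kinds overlapped, since iPSC 2 lay above gPSC 1 (exact permutation p = 0.667, adjusted 0.933 over 7 comparisons). Hypo positions numbered 4776 ± 1812 (SD, n = 2) in iPSC and 3096.5 ± 786 (SD, n = 2) in gPSC, with an exact permutation p of 0.667. The share hyper was 86.8% ± 3.63 (SD, n = 2) in iPSC and 91.5% ± 2.47 (SD, n = 2) in gPSC. Both gPSC lines lay above both iPSC lines, and the iPSC mean minus the gPSC mean was -4.71 points (exact permutation p = 0.333, adjusted 0.778). The highest iPSC line, at 89.3%, and the lowest gPSC line, at 89.7%, were close. The median hyper difference was 54.8 points in iPSC and 55.1 in gPSC, and the hypo median -56.1 and -48.0 points (exact permutation p = 1 for each). Without iPSC 2 the hypo medians turned to -42.9 against -48.0 points, so that comparison rests on 1 line.

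Gene bodies differed in direction by how near they came to a gene start. Starts were those of the RefSeq table on either strand, which holds them for 27025 of 34627 genes and none on chromosome 18, which was left out. A position counted as far may therefore lie near a start that the table does not hold. Within 250 bases of a start, 50.6% to 60.6% of gene-body positions were hyper. Between 1000 and 2000 bases the range was 76.1% to 87.6%, and beyond 50 kb it was 88.5% to 95.6%. The share rose from the nearest to the farthest class in 5 of 5 libraries. Positions within 1000 bases of a start were less often hyper than farther ones, with a difference of -31.6 ± 3.02 points (SD, n = 5, exact sign-flip permutation p = 0.0625). They held 34.2% of all hypo gene-body positions of GSC, 23.7% and 15.0% of those of iPSC 1 and 2, and 26.7% and 25.7% of those of gPSC 1 and 2. Of hyper positions they held 3.66% to 4.41%. Opposite neighbours moved with this trend: 42.0% to 51.5% of positions within 250 bases of a start were 1 base from an opposite one, against 1.87% to 3.65% beyond 50 kb. Without such neighbours the difference between near and far positions was -26.7 points.

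**Figure D4:**
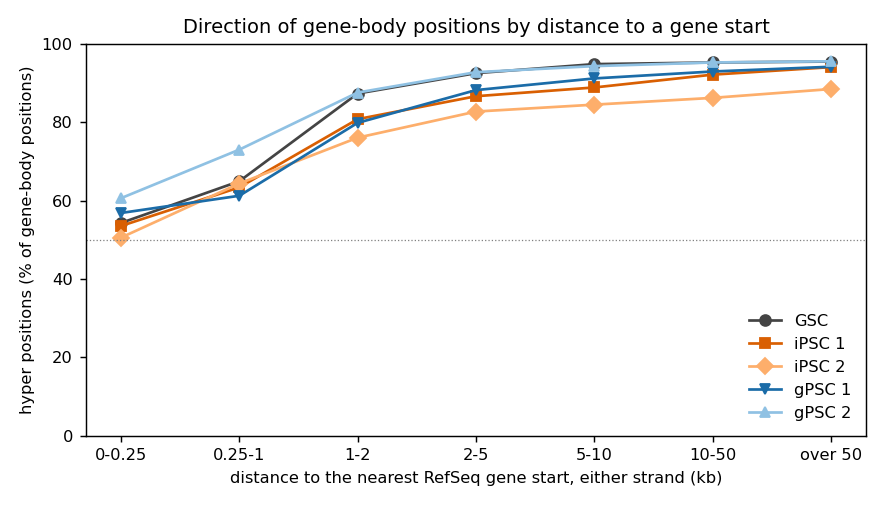
Share of gene-body positions that are hyper (percent, y axis) by distance to the nearest RefSeq gene start on either strand (kb, x axis), 1 line per library. The lines start between 50.6% and 60.6% and end between 88.5% and 95.6%, with iPSC 2 lowest in the last class.

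Gene names needed coordinates, because the deposited gene column holds GenBank accessions and no symbols. It names 42281 accessions in gene bodies, with a median of 3 per position. The accession with the most positions, M26410, had 929 over 1212 kb of chromosome 10, a stretch with 70 protein-coding genes. The next, AK145751, had 848 positions on 7 chromosomes, and AF177147 had 388 on 2. BC042662 had 385 positions over 35 protein-coding genes, and U95016 had 373 over 10. Of the 211 positions of accession M30250, for example, 78 lie in Usp7 and the rest elsewhere in a span of 593 kb. An accession was therefore not taken as a gene. Positions were instead assigned to RefSeq genes of the same build by their coordinates. Of the gene-body positions, 86.25% lay inside such a gene, and 13718 lay inside minus-strand genes only. A position in a minus-strand gene can belong, by the deposited annotation, to an intron of another transcript that spans the gene.

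A gene was called hyper or hypo in a library when it held at least 3 gene-body positions of that direction, making up at least 80% of its positions there. An iPSC or gPSC call needed both lines of the kind. Of 6572 genes with 3 or more positions in any library, 4225 were called hyper in GSC (64.3% of those assessed), 1820 in iPSC (27.7%) and 2270 in gPSC (34.5%). Hypo calls were few, at 51 genes in GSC (0.776%), 6 in iPSC (0.0913%) and 1 in gPSC (0.0152%). By line, hyper calls numbered 2633 (40.1%) and 2629 (40%) in iPSC and 2865 (43.6%) and 3295 (50.1%) in gPSC (exact permutation p = 0.333, the smallest possible). Hypo calls by line numbered 35 (0.533%) and 77 (1.17%) in iPSC and 24 (0.365%) and 16 (0.243%) in gPSC (exact permutation p = 0.333). In both counts the iPSC and gPSC lines did not overlap. Genes called hyper were long, with median lengths of 43.3 kb in GSC, 71.3 kb in iPSC and 68.7 kb in gPSC, against 35.8 kb for all genes assessed. A long gene has more positions with which to reach 3, and this was not adjusted for. GSC also listed more positions of any annotation, 255689 against 143525 to 168199 in the other libraries. Per assessed gene with a position, the median was 5 positions in GSC and 3 to 4 in the others. That too was not adjusted for in the calls. Of the 51 genes called hypo in GSC, 25 lie on the minus strand, where 1369 of all 6572 genes lie.

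The genes with the most gene-body positions were long, and their positions were mostly hyper. Wwox, a large gene for an oxidoreductase with WW domains at chr8:114439635-115352712, led with 284 distinct positions, 269 of them intronic and 15 with both terms. Its hyper positions numbered 164, 114, 118, 104 and 126 in GSC, iPSC 1, iPSC 2, gPSC 1 and gPSC 2, beside 4, 4, 8, 5 and 5 hypo positions. Its mean difference was 62.3 points in GSC, 52.3 ± 0.850 points (SD, n = 2) in iPSC and 54.9 ± 4.17 points (SD, n = 2) in gPSC. GSC was above each of the 4 pluripotent lines at this gene. Medians over all assessed genes were 65.3 points in GSC, 46.9 in iPSC and 52.7 in gPSC, also with GSC highest. Each gene mean is over the positions listed in that library, and these sets differ between libraries.

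Cdh13, which encodes T-cadherin, a cadherin anchored by a lipid, spans chr8:118140017-119324929 and had 170 positions. Its hyper counts were 98, 82, 61, 50 and 76 in the same order of libraries, and its mean differences were 63.9, 51.0, 48.6, 61.2 and 54.1 points. Gpc6, a glypican at chr14:116924920-117979529, had hyper counts of 69, 63, 69, 58 and 65, a narrow range, and mean differences of 68.5, 54.3, 58.6, 59.4 and 54.1 points. Both genes were called hyper in all 5 libraries, with GSC highest.

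Csmd2, a transmembrane gene with CUB and sushi domains at chr4:127986505-128567660, had hyper counts of 69, 71, 61, 48 and 73. Its mean differences were 67.5, 61.1, 52.7, 67.4 and 58.5 points, with gPSC 1 close to GSC. Ksr2, a scaffold of the RAF, MEK and ERK kinases at chr5:117414002-117767996, had 129 positions and mean differences of 62.6, 59.6, 62.3, 67.4 and 64.3 points, and there both gPSC lines exceeded GSC.

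Zfhx3, a zinc finger and homeobox factor at chr8:108279311-108961636, had mean differences of 63.9 points in GSC, 37.0 ± 2.51 points (SD, n = 2) in iPSC and 49.9 ± 5.04 points (SD, n = 2) in gPSC. Its hyper counts were 95, 51, 59, 39 and 66. The lines were ordered GSC, gPSC, iPSC without overlap. Medians over all assessed genes had this order too, and how many genes show it without overlap was not counted. Agap1, which acts on ARF GTPases, had hyper counts of 86, 55, 60, 46 and 69 and hypo counts of 12, 12, 14, 3 and 4 at chr1:89454811-89895282. Tmem132c, a transmembrane gene at chr5:127241826-127565790, had hyper counts of 74, 65, 53, 57 and 62 and at most 3 hypo positions in a library.

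Casz1, a zinc finger factor of heart and vessel development at chr4:148804366-148954893, had 168 positions and lower means, of 45.5, 24.4, 33.5, 38.5 and 35.6 points. Ephb2, a receptor for ephrin-B ligands at chr4:136647536-136836326, is a minus-strand gene whose 186 positions were all annotated to the intron of 1 accession. Its hyper counts were 109, 30, 53, 66 and 67 and its hypo counts 21, 1, 16, 10 and 5. Rnf220, a ubiquitin ligase gene on the same strand at chr4:117271463-117497052, had hypo counts of 30, 6, 16, 9 and 31 beside hyper counts of 76, 30, 41, 46 and 55. It was called in iPSC 1 and gPSC 1 only. The genes described from Wwox on, Ksr2 apart, are the 10 with the most listings summed over the libraries.

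Further genes with many positions were called hyper in the same way. Shank2, a scaffold of the postsynaptic density at chr7:143978077-144426043, had hyper counts of 76, 50, 52, 51 and 40, with 59 of its 107 positions in exons. Cntnap2, a neurexin relative at chr6:45060061-47301393, had 62, 47, 51, 42 and 44, Sdk1, an adhesion gene at chr5:141241497-142215586, had 59, 61, 42, 49 and 60, and Ank3, the gene of ankyrin-G at chr10:69533486-70027436, had 50, 37, 42, 47 and 47. Macrod2, an ADP-ribose hydrolase gene at chr2:140395303-142392966, had 78, 36, 51, 67 and 43, all intronic. No library listed more than 4 hypo positions in any of these 5 genes.

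Garem2, an adaptor of growth factor signalling at chr5:30105196-30118380, was the short gene of this group at 13.2 kb. GSC listed 84 hyper and 1 hypo positions there, iPSC 1 17 hyper and 17 hypo and iPSC 2 5 hyper and 2 hypo. gPSC 1 listed 8 hyper and 0 hypo and gPSC 2 7 hyper and 1 hypo. GSC and both gPSC lines were called hyper, at mean differences of 57.1, 63.6 and 58.9 points. Neither iPSC line was called, at 1.44 and 21.0 points. The gPSC call of Garem2 was lost at q of 0.001, and both gPSC lines and iPSC 2 listed few positions beside GSC.

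**Figure D5:**
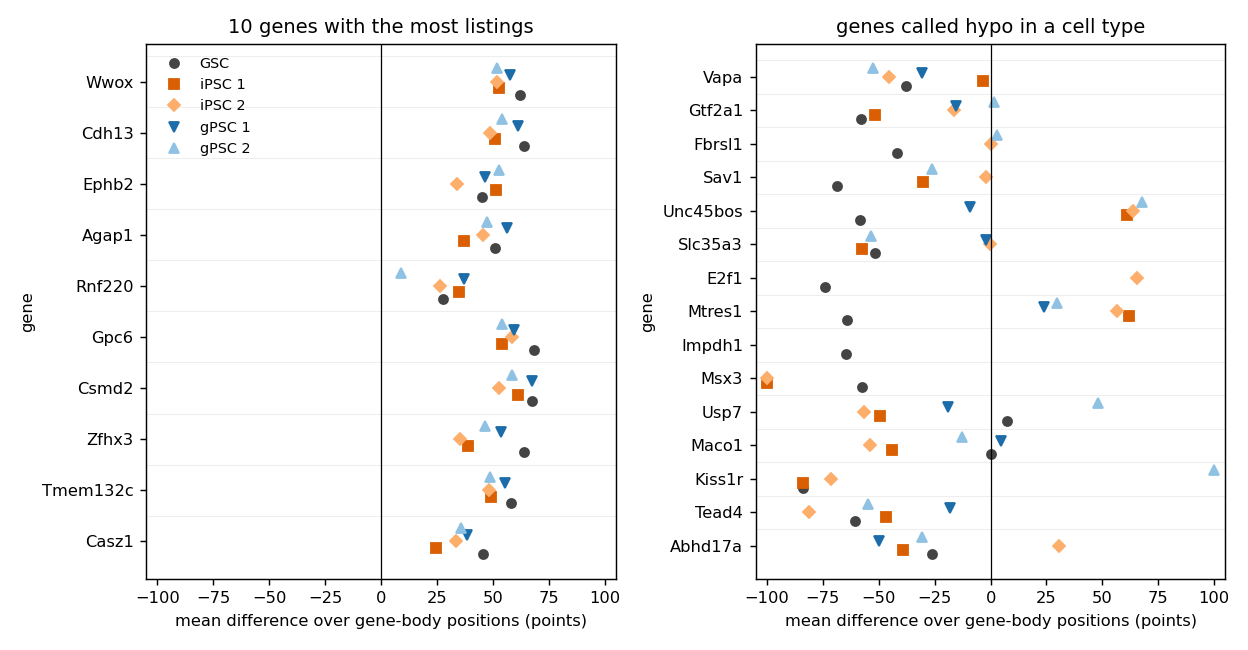
Mean methylation difference over gene-body positions (points, x axis) per gene (y axis), 1 point per library, for the 10 genes with the most listings (left) and the genes called hypo in a cell type (right). All points on the left lie above 0, and those on the right fall on both sides of it.

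The 10 named genes called hypo in GSC all lie on the minus strand, and in 8 of them most positions lie within 1000 bases of a RefSeq start. Vapa, a tether of the endoplasmic reticulum to other membranes at chr17:65580053-65616462, had 1 hyper and 19 hypo positions in GSC, and 56 of its 58 positions lie within 1000 bases of a start. Without positions that near, its GSC mean went from -38.0 to 80 points, a value that rests on at most 2 positions. Gtf2a1, a subunit of the general transcription factor TFIIA, had 1 hyper and 16 hypo in GSC, and its mean of -57.8 turned to 57.5 points. The same filter turned Slc35a3, a nucleotide sugar transporter gene, from -51.6 to 100 points, and Mtres1, a gene for a mitochondrial protein, from -64.3 to 100. In these 4 genes few positions remain after it, and the hypo call is that of positions near a start.

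Sav1, a scaffold of the Hippo kinases, had 1 hyper and 13 hypo in GSC at a mean of -68.9 points, all within 1000 bases of a start. E2f1, described above, had 0 hyper and 11 hypo at -74.1 points, and iPSC 2 listed 1 hyper position in it. Impdh1, an enzyme of guanine nucleotide synthesis, had 0 hyper and 10 hypo, at -64.8 points, all in exons and near a start, and no position in any pluripotent line. Fbrsl1 had 1 hyper and 15 hypo in GSC at -41.9 points and near-equal counts of both directions in iPSC 2 and gPSC 2. In 2 of the 10 genes at most 1 position lay that near a start of the table. Msx3, a homeobox gene, had 1 hyper and 9 hypo in GSC at -57.4 points and 1 hypo position in each iPSC line. Unc45bos, a long non-coding gene, had 1 hyper and 12 hypo in GSC at -58.6 points, and 3 hyper positions with no hypo one in each iPSC line.

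Of the 6 genes called hypo in both iPSC lines, 2 are predicted genes and are not named. Usp7 at chr16:8688722-8757067 had 1 hyper and 22 hypo positions in iPSC 1 and 2 hyper and 25 hypo in iPSC 2, at -53.2 ± 5.08 points (SD, n = 2). GSC listed 35 hyper and 30 hypo, a mean of 7.32 points, gPSC 1 listed 7 hyper and 7 hypo, and gPSC 2 had 6 hyper positions only. Maco1 at chr4:134802759-134853931 had 0 hyper and 18 hypo and 1 hyper and 6 hypo in the iPSC lines, at -48.9 ± 7.15 points (SD, n = 2). GSC listed 15 hyper and 15 hypo there, gPSC 1 13 hyper and 11 hypo, and gPSC 2 16 hyper and 31 hypo at a mean of -12.7 points. Without positions within 1000 bases of a start, the iPSC means turned to 37.7 points for Usp7 and 12.5 points for Maco1, from positions outside the printed windows. The iPSC call of Usp7 was also lost at q of 0.001, and that of Maco1 at a minimum difference of 50 points.

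Kiss1r, the receptor of kisspeptin in the control of reproductive hormones, spans chr10:79916952-79924088 and had 5 positions. GSC, iPSC 1 and iPSC 2 each listed 4 hypo positions, with means of -84.0, -84.0 and -71.5 points. None of its positions lies within 1000 bases of a start in the table. gPSC 1 listed none and gPSC 2 listed 1 position, which was hyper. The GSC call of Kiss1r was lost at q of 0.001. Tead4, a transcription factor of the Hippo pathway at chr6:128227143-128300813, had 30 positions, all exonic. They all lie at chr6:128300521-128300811, at 1 end of the gene. Its strand and start are not in the table, so whether that end is the start was not tested. Tead4 was hypo in both iPSC lines, with 1 hyper and 5 hypo and 0 hyper and 3 hypo, at -64.1 ± 24.3 points (SD, n = 2). This call was lost at q of 0.001. gPSC 1 listed 9 hyper and 15 hypo there.

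Abhd17a, an enzyme that removes palmitate from proteins, was the 1 gene called hypo in both gPSC lines. Each listed 1 hyper and 4 hypo positions at chr10:80583649-80590341, and the mean was -40.2 ± 13.4 points (SD, n = 2). iPSC 2 listed 3 hyper and 1 hypo there, so its direction differed among the pluripotent lines. The gene lies on the minus strand, and its 15 positions carry only M26410, described above as spread over many genes. The call was lost at a minimum difference of 50 points, at q of 0.001, without positions within 1000 bases of a start, at 5 positions a gene and with all positions in 1 direction.

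Per length of gene, the densest bodies were short genes in which both directions were listed. Galr3, a receptor of the peptide galanin at chr15:79041885-79043558, had 54 exonic positions, or 32.3 per kb. Its hyper counts were 1, 19, 13, 9 and 11 and its hypo counts 1, 23, 14, 11 and 12, so each library was near balance. Nsmce3 followed at 20.6 per kb, with 14 positions of each direction in GSC and in iPSC 2. Thap7, a THAP zinc finger gene, had 8, 13, 1, 15 and 16 hyper and 8, 15, 0, 16 and 15 hypo positions, at 15.0 per kb.

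Ost4 (a small subunit of oligosaccharyltransferase), Tprgl, Zfp593 and Foxb1 (a forkhead factor) had between 10.8 and 13.9 positions per kb, and each had both directions listed in at least 2 libraries. Rps26, a ribosomal protein gene, was listed in gPSC 2 only, with 11 positions of each direction. Pbp2 and Ffar1 differed from these dense genes. Pbp2, a phosphatidylethanolamine-binding protein gene at chr6:135309129-135310384, had hyper counts of 10, 8, 9, 8 and 8 and no hypo position. Its mean was 65.3 points in GSC, 48.1 ± 12.1 points (SD, n = 2) in iPSC and 52.8 ± 9.83 points (SD, n = 2) in gPSC. Ffar1, a fatty acid receptor gene at chr7:30860568-30861470, had hyper counts of 10, 8, 4, 9 and 6 and 1 hypo position, in iPSC 2. Both were called hyper in all 5 libraries.

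Gene lists were read against the gene call shares of 64.3% hyper in GSC, 27.7% in iPSC and 34.5% in gPSC. The median over all assessed genes of the mean difference was 65.3 points in GSC, 46.9 in iPSC and 52.7 in gPSC. A list's assessed members are those with 3 or more positions in some library, so they are not all members.

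The machinery of DNA methylation had 13 assessed members of 30. Of these, 8 were called hyper in GSC, 2 in iPSC and 4 in gPSC, with none hypo, and medians were 69.7, 40.6 and 55.1 points. Uhrf1, the partner of DNMT1, was hyper in all 5 libraries with counts of 11, 5, 6, 8 and 5 and no hypo position. Dnmt3a had hyper counts of 15, 5, 10, 8 and 7, with 3 hypo positions in iPSC 2. Tet1, a 5-methylcytosine oxidase, was called in GSC and both gPSC lines, at 71.6, 47.4, 28.8, 66.9 and 61.9 points. It lies on the minus strand, and its positions carry only an annotation that also covers the collagen gene Col13a1. The GSC share of the list is close to that of all genes.

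Pluripotency genes had 7 assessed members of 30. In GSC 5 were called hyper (Klf5, Esrrb, Tfcp2l1, Lefty1 and Lefty2), in iPSC none and in gPSC 1. Medians were 66.0 points in GSC, 23.5 in iPSC and 26.8 in gPSC. Esrrb, an orphan nuclear receptor of naive pluripotency at chr12:86361117-86521628, had 68 positions, all intronic. GSC listed 46 hyper and 2 hypo there, iPSC 1 14 hyper and 8 hypo, iPSC 2 13 hyper and 5 hypo, gPSC 1 11 hyper and 1 hypo and gPSC 2 14 hyper and 0 hypo. The mean was 67.0 points in GSC, 23.5 ± 10.5 points (SD, n = 2) in iPSC and 54.0 ± 9.40 points (SD, n = 2) in gPSC. The gPSC lines lay between GSC and the iPSC lines, with no overlap between kinds. Medians over all assessed genes had the same order, and the genes with such an order were not counted.

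Of spermatogonial stem cell genes, 9 of 29 were assessed, and 7 were called hyper in GSC, 2 in iPSC and 3 in gPSC. Itga6, an integrin of the stem cell surface, had hyper counts of 22, 3, 9, 4 and 7 and means of 65.6, 61.1, 55.7, 43.4 and 33.5 points. Kit, the receptor of differentiating spermatogonia, had hyper counts of 13, 7, 6, 10 and 12 and no hypo position. Germline genes had 6 assessed members of 30, of which 5 were hyper in GSC, 3 in iPSC and 2 in gPSC. Tdrd9, a helicase of the piRNA pathway, had hyper counts of 17, 15, 14, 13 and 14, and Tex14, of germ cell bridges, had 18, 6, 7, 11 and 5. Medians were 54.8, 42.6 and 47.5 points for the stem cell genes and 60.3, 49.9 and 50.3 points for the germline genes, in the order GSC, iPSC and gPSC.

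Imprinted genes had 14 assessed members of 40, of which 10 were called hyper in GSC, 3 in iPSC and 4 in gPSC. Medians were 62.4, 37.6 and 41.0 points. Kcnq1, a potassium channel gene, had hyper counts of 32, 31, 23, 18 and 27, Usp29 had 20, 20, 15, 22 and 22 and Rasgrf1 had 5, 3, 5, 7 and 5, and each was called in all 5 libraries. Igf2, a growth factor gene, had 4 hyper and 0 hypo positions in GSC and 1 hyper and 9 hypo in iPSC 2, where it was called hypo at -45.1 points. iPSC 1 and gPSC 1 listed none there and gPSC 2 listed 1, so the iPSC lines could not be set against each other.

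Hox genes stood lowest of the lists in GSC by median. Of 39 members 12 were assessed, 4 were called hyper and 1 hypo in GSC, 1 was hyper in iPSC and none was called in gPSC. Medians were 3.21 points in GSC, 19.5 in iPSC and 7.57 in gPSC. The GSC median is the mean of Hoxd3, in which both directions were listed. They were also mixed in GSC in Hoxd9, with 5 hyper and 5 hypo positions, and in Hoxa6, with 2 and 3. Every listed position differs by at least 25 points, so a gene mean near 0 comes from opposite directions and not from small differences. Hoxd3 had 84 positions at chr2:74711993-74748271, with hyper counts of 21, 18, 22, 17 and 18 and hypo counts of 18, 2, 5, 4 and 9. It was called hyper in both iPSC lines and in gPSC 1, and not in GSC or gPSC 2. Hoxb3 had hyper counts of 21, 2, 13, 7 and 4 and hypo counts of 2, 4, 11, 4 and 3, and was called in GSC only. Hoxa5 had 9 hypo positions in GSC, at -39.9 points and near a start, and Hoxa4 had 13 hyper ones at 69.6 points. The GSC calls of these neighbouring genes of 1 cluster were thus opposite. That of Hoxa5 rests on positions at chr6:52203854-52203917 and was lost at q of 0.001. Its direction also depends on the untested strand sign described above.

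Collagens, long genes of matrix proteins, had 21 assessed members of 39. All 21 were called hyper in GSC, 12 in iPSC and 14 in gPSC, and none was hypo. Medians were 62.6, 48.1 and 57.3 points. Col23a1 had 85 positions and hyper counts of 43, 37, 41, 33 and 32, with means of 56.5, 43.3, 47.5, 58.3 and 49.6 points. Col27a1 had hyper counts of 21, 15, 15, 12 and 12 and no hypo position, with means of 67.5, 60.8, 70.5, 66.6 and 70.5 points. The called shares were above the background in each cell type, and the members are long genes, whose part in the counts was not tested.

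Subunits of voltage-gated calcium channels had 14 assessed members of 26. In GSC 12 were hyper and 1 hypo, and 6 were hyper in iPSC and 6 in gPSC. Medians were 55.1, 41.2 and 53.1 points. Cacna1i had hyper counts of 56, 32, 33, 20 and 38 and Cacna2d2 had 46, 32, 21, 28 and 31, both called in all 5 libraries. Cacng8 was the hypo member in GSC, with 1 hyper and 4 hypo positions, and gPSC 2 listed 17 hyper and 15 hypo in it.

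Markers of other cells that a culture could hold were read in the same way. Fibroblast genes had 7 assessed members of 20, with 5 hyper in GSC, 1 in iPSC and 1 in gPSC, at medians of 53.2, 60.6 and 63.9 points. The member called in each cell type was Twist2, a transcription factor of mesenchyme, with hyper counts of 3, 10, 8, 4 and 11 and means of 41.2, 59.5, 73.4, 65.6 and 62.2 points. GSC had the fewest positions of the 5 libraries in it, and also in Mmp2. The other assessed members differed: GSC had the most in Thy1 and Tgfbi. No line had more than GSC in Col1a1 and Pdgfrb, and only iPSC 2 had more in Pdgfra. Testis somatic genes had 6 assessed members of 20, with 3 hyper in GSC, 2 in iPSC and 1 in gPSC, at medians of 52.3, 37.3 and 59.7 points. Cytosolic ribosomal protein genes had 2 assessed members of 75, and the 1 called gene was Rpl8, hyper in GSC with 3 positions.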

How the data were processed

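The submitters' processing notes name the builds GRCm38 and mm10 and the tools methylKit, GATK, Bowtie2 and Bismark, with no version. Settings and coverage minimums, and any merging of strands, are not stated in the sources used here. The authors deposited, for each called position, a p-value, a q-value and a methylation difference in percentage points as signed values. Coverage is not in the tables, so the depth and the precision of a value are unknown. The deposited strand column reads plus throughout.

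The tables were read with Python 3.11.15, pandas 2.3.3 and numpy 2.4.6. Gene names, ends, starts and sequences came from GRCm38.p6 RefSeq tables of 34627 genes, protein-coding or lncRNA. A position in overlapping genes counted in each. Gene calls used at least 3 positions of a direction and at least 80% of a gene's positions. The calling and test code was checked on simulated data.

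Counts, shares and medians were compared between 2 iPSC and 2 gPSC lines by two-sided exact permutation tests. Within-library contrasts used exact sign-flip tests over 5 libraries. The lines of a kind are independent per the labels, and their numbers are names that pair nothing. A planned comparison of the share of GSC positions also hyper in each line is not reported, since these tables share a reference. The exon and start-distance contrasts were added after the data were seen.

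Named genes were, per cell type and direction, the 10 called genes with the most positions (the smaller number of both lines). Added were the 10 with the most listings, the 10 with the most positions per kb among genes with at least 10, and up to 4 members of each of 11 gene lists or any member called. Predicted and small RNA genes were left out. The members and lists were chosen with earlier results of these data known. Alternatives were stricter q and difference thresholds, removal of opposite neighbours, other minimums, windows of 1000 bp and each line left out.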

Additional observations from a re-analysis of the deposited data

Results flagged for a closer look

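At 3 genes the gene-body call in GSC was hypo while both lines of a pluripotent kind were called hyper. The difference between the cell types was not tested in any of them, and GSC has 1 library. The libraries list different sets of positions in these genes, and whether the same positions differ in direction was not tested. The hypo calls also depend on the untested strand sign described above.

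Fam50b had 2 hyper and 8 hypo positions in GSC, at a mean difference of -47.9 points. The iPSC lines listed 8 hyper positions with no hypo one and 6 with 1, and the gPSC lines 15 with 2 and 5 with 1. Their means were 32.1 ± 11.2 points (SD, n = 2) in iPSC and 40.7 ± 9.46 points (SD, n = 2) in gPSC. Fam50b lies on the plus strand, 29 of its 34 positions are exonic, and none lies within 1000 bases of a start in the RefSeq table used. The call of Fam50b in GSC was thus opposite to its calls in iPSC and gPSC. These calls rest on 48 listings at the 34 positions, over all libraries.

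Unc45bos, a long non-coding gene on the minus strand, had 1 hyper and 12 hypo positions in GSC, at -58.6 points. Each iPSC line listed 3 hyper positions and no hypo one, at a mean of 62.5 ± 1.95 points (SD, n = 2). gPSC 1 listed 9 hyper and 12 hypo positions and gPSC 2 listed 3 hyper ones.

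A230070E04Rik had 1 hyper and 8 hypo positions in GSC, at -36.5 points. The gPSC lines listed 5 and 3 hyper positions and no hypo one, at 37.6 ± 2.98 points (SD, n = 2).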

How the results depend on the processing

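With 2 lines a kind and 5 libraries, none of the tests could pass 0.05, so only direction and size bear on stability. Of 231 values recomputed, 4 differences reversed, 52 counts moved by over 1.5 times, and the other differences kept their direction but not always their size. The share hyper in exons minus introns shrank to -0.158 points without positions within 50 bases of an opposite one. Against positions with no feature in place of promoters, the gene-body excess was 2.62 points of share hyper and 0.238 points of median. The iPSC excess in genes called hypo ran from 11.5 to 154 over filters. The iPSC and gPSC contrasts kept their direction under each of the 5 to 8 alternatives of filter and unit, except the median hyper difference. It turned to 1.07 points at a minimum difference of 50 points. Leaving out a line gave it -4.42 to 3.96 points, with a reversal without iPSC 1 or without gPSC 1 (3.62 points). The median hypo difference ran from -21.3 to 5.09 points, with the reversal without iPSC 2. The other ranges over a left-out line were -4220 to -1153 hyper positions, 398.5 to 2960.5 hypo positions, -7.28 to -2.15 points of share hyper, -664 to -234 genes called hyper and 15 to 57 called hypo. The gap to promoters stayed at 29.8 to 31.2 points, and that to far positions at -32.4 to -30.7.

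Line numbers are names within a kind. With them as a replicate block, the differences were those of the unpaired test, -4.71 points for the share hyper, with sign-flip p of 0.5 or 1, of which 0.5 is the smallest possible. The block changed no call.

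Hypo counts depended on filters. Without positions 1 base from an opposite one they were 2263 in iPSC 1, 2265 in gPSC 1 and 1604 in gPSC 2. Without those within 50 bases they were 2562, 1850, 1791 and 1304 in GSC, iPSC 1, gPSC 1 and gPSC 2. At 50 points or more they were 2430, 1390, 1745 and 1217, and hyper counts were 15042, 20163, 19977 and 18270 in iPSC 1, iPSC 2, gPSC 1 and gPSC 2. At q of 0.001 hypo counts were 2741, 2027, 3093, 2088 and 1325 in library order. Without positions within 1000 bases of a start, an alternative chosen after seeing the data, GSC had 2986.

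Genes called hyper in iPSC and gPSC were 1023 and 1352 at 50 points, 1068 and 1329 at 5 positions a gene and 3238 and 4096 at 1. With all positions in 1 direction iPSC had 1031. On plus-strand genes only, also chosen after seeing the data, GSC, iPSC and gPSC had 2528, 1134 and 1427 hyper and 19, 1 and 0 hypo. Genes called hypo in GSC were 32 at q of 0.001, 25 away from starts, 31 at 5 positions, 143 at 1 and 24 with 1 direction. In iPSC they were 1 at q of 0.001, 51 at 1 position, 2 with 1 direction and 35 to 77 by single line. In gPSC they were 23 at 1 position, 16 to 24 by line and 0 at 50 points, at q of 0.001, away from starts, at 5 positions and with 1 direction. Cause beyond fewer positions or lines was not tested. Of 1067 values of named genes, 992 kept their call, 69 lost it and 6 reversed, all 6 away from starts: Vapa 80, Gtf2a1 57.5, Slc35a3 100, Mtres1 100, Usp7 37.7 and Maco1 12.5 points.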
